A study of Homo sapiens with 24 samples.

Results

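The genes described here encode 9 receptors through which blood-forming cytokines act, namely KIT, FLT3, CSF1R, CSF2RA, CSF2RB, CSF3R, IL3RA, EPOR and IL6R. They were taken by gene symbol from the gene count table, which held all 9 among 19475 genes, and were followed in both arms of 4 human cell lines. KIT (the receptor of stem cell factor), FLT3 (of FLT3 ligand) and CSF1R (of macrophage colony-stimulating factor) are receptor tyrosine kinases, whose own kinase domain starts the signal once a ligand has brought receptor molecules together. The other receptors have no kinase domain and signal through bound JAK kinases and STAT factors. CSF2RA and IL3RA are the ligand-binding chains for GM-CSF and interleukin-3 and share the signalling chain CSF2RB. CSF3R binds G-CSF, EPOR binds erythropoietin, and IL6R binds interleukin-6 and signals through the partner chain IL6ST. In blood formation KIT and FLT3 are carried by early progenitors, EPOR by the red cell branch, and CSF1R, CSF2RA and CSF3R by the myeloid branches.

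RNA-seq libraries labelled CBX7 knockdown were compared with libraries labelled control, 3 of each per line and 24 in all. A549 derives from a lung adenocarcinoma and H1299 from another lung carcinoma, K562 is a chronic myeloid leukaemia line with red cell features, and THP-1 comes from a monocytic leukaemia. CBX7 is a Polycomb protein that binds methylated histone tails and takes part in gene silencing. Per the labels' protocols the cells of every group received lentivirus, with a short hairpin RNA against CBX7 or with a control hairpin, whereas the treatment label names siCBX7 for both arms. The labels do not say that replicates were grown separately, so p-values here reflect only how these libraries scatter, possibly for technical reasons. CBX7 went against the labels: its level in the libraries labelled knockdown was above that in the libraries labelled control in every line, by 1.20 (THP-1), 1.51 (K562), 3.08 (A549) and 3.62 (H1299) on the log2 scale. Each direction below is that of the libraries carrying the knockdown label, whose CBX7 RNA was more abundant.

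Library totals of estimated counts, in units of 1e6, ran from 71.1 to 132.5, and the number of sequenced fragments behind them is not known. A gene with 0 counts may still have had up to 3, which is 0.0226 to 0.0422 CPM (counts scaled to library size) depending on the library, for counting error alone. This limit takes each count as a fragment and lies higher if a fragment gave several counts. The lines carried their markers: 12 erythroid genes together reached 2175 CPM or more in K562 and at most 10.4 CPM in any other line, and 12 monocyte genes summed to at least 1872 CPM in every THP-1 library, with 155.5 CPM as the top value of the other lines. The 7 epithelial genes summed to 5822 to 6074 CPM in A549 libraries labelled knockdown and 10900 to 11057 CPM in A549 controls. Of these 7 genes 3 were called higher and 3 lower, where 27.2% and 28.4% of all A549 genes were. In H1299 they summed to 722 to 736 CPM in libraries labelled knockdown, within the 482 to 756 CPM of K562, and to 1516 to 1573 CPM in controls. THP-1 knockdown replicate 2 stood apart from the other libraries of its group, with a chi-square per degree of freedom over genes (on counts divided by 4) of 67.8 and 69.6 against the other replicates, where other pairs of THP-1 libraries gave 8.28 to 16.9. KIT and FLT3 were the called receptors of THP-1 with and without it.

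The sequences that bear on the results are the promoters of KIT, FLT3 and EPOR and the stretches in which the transcripts of KIT and of IL6R differ. Promoter windows are the 250 bases before the RefSeq gene start on GRCh38.p14, written 5′ to 3′ on the gene's strand. KIT and FLT3 are shown because both fell in THP-1; capitals mark CG pairs. KIT lies on the plus strand at chr4:54657707-54657956 and FLT3 on the minus strand at chr13:28100577-28100826.
KIT: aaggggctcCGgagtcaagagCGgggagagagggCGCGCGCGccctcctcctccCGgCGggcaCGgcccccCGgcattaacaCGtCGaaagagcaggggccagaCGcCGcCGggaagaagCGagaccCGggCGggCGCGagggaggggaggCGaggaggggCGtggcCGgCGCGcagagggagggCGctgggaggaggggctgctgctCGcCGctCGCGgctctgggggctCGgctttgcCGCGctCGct
FLT3: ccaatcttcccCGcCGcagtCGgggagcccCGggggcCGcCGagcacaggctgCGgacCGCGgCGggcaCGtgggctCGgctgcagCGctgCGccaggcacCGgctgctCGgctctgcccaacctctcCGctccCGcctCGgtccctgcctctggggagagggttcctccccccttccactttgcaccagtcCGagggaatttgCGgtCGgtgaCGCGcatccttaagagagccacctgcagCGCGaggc
The KIT window held 34 CG pairs at 76.4% G and C, and 6.84% of 35116 promoter windows of this length held as many or more. The FLT3 window held 26 CG pairs at 72.0%, a number reached by 19.6% of the windows, where the median was 11. Of the 9 genes 8 matched a window, and the windows of CSF1R, CSF2RA, CSF3R, IL3RA and EPOR held 10 CG pairs or fewer, against 22 in IL6R.

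The EPOR window, on the minus strand at chr19:11384315-11384564, is shown because EPOR rose in K562, the line with the erythroid genes. Capitals mark its match to AGATAA, the core bound by GATA factors, which reads TTATCT on the gene's strand.
EPOR: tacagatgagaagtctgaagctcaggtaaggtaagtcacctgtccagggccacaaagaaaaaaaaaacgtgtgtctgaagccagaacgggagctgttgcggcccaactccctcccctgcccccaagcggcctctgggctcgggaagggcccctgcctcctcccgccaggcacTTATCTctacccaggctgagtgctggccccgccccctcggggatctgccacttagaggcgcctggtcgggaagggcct
AGATAA, searched on both strands, was found in 9.17% of all windows, and among the receptor windows in that of EPOR alone. The other motifs searched on both strands were GAGGAA, present in 23.6% of all windows, and TGTGGT, present in 11%. The windows of KIT and FLT3 held no AGATAA and no TGTGGT, and FLT3 held 1 GAGGAA. A match is a description of the letters only.

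The transcripts of KIT differ by a short stretch just outside the membrane, and NM_000222 carries 12 coding bases that NM_001093772 lacks (coding positions 1529 to 1540, in GENCODE release 29). Capitals mark bases that the other transcript of the same gene lacks.
KIT NM_000222: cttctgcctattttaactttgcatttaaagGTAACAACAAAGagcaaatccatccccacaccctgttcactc
KIT NM_001093772: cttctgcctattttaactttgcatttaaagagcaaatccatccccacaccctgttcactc
IL6R NM_000565 encodes the membrane receptor, and the 94 bases that NM_181359 lacks hold its membrane-spanning part, so that NM_181359 encodes a soluble receptor.
IL6R NM_000565: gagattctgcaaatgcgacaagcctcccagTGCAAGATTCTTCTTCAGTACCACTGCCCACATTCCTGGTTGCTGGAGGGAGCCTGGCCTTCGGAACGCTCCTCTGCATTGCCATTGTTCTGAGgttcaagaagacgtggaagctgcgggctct
IL6R NM_181359: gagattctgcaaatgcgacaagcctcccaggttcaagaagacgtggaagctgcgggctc
These stretches are short against the transcripts, and the shares given below are the authors' estimates.

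The lines differed first in which receptors they carried at all. THP-1 control libraries carried all 9, and per length of transcript (FPKM, the deposited fragments per kilobase of transcript, scaled to library size) IL6R was highest at 84.5 ± 1.55, followed by CSF3R at 33.0 ± 5.56, FLT3 at 24.1 ± 1.14 and CSF1R at 19.5 ± 1.25 (mean ± SD, n = 3, as below). CSF2RB, KIT, EPOR, CSF2RA and IL3RA lay between 3.11 and 6.85 FPKM there. In K562 control libraries EPOR at 9.72 ± 0.86 FPKM and KIT at 7.31 ± 0.17 FPKM led, CSF3R had 1.81 ± 0.18 FPKM, and the other 6 receptors lay at 0.213 FPKM or less. H1299 carried EPOR at 17.7 ± 0.25 FPKM in control libraries, with IL6R next at 0.0728 FPKM, and A549 carried EPOR, IL6R and CSF2RA between 1.06 and 2.10 FPKM.

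**Figure D1:**
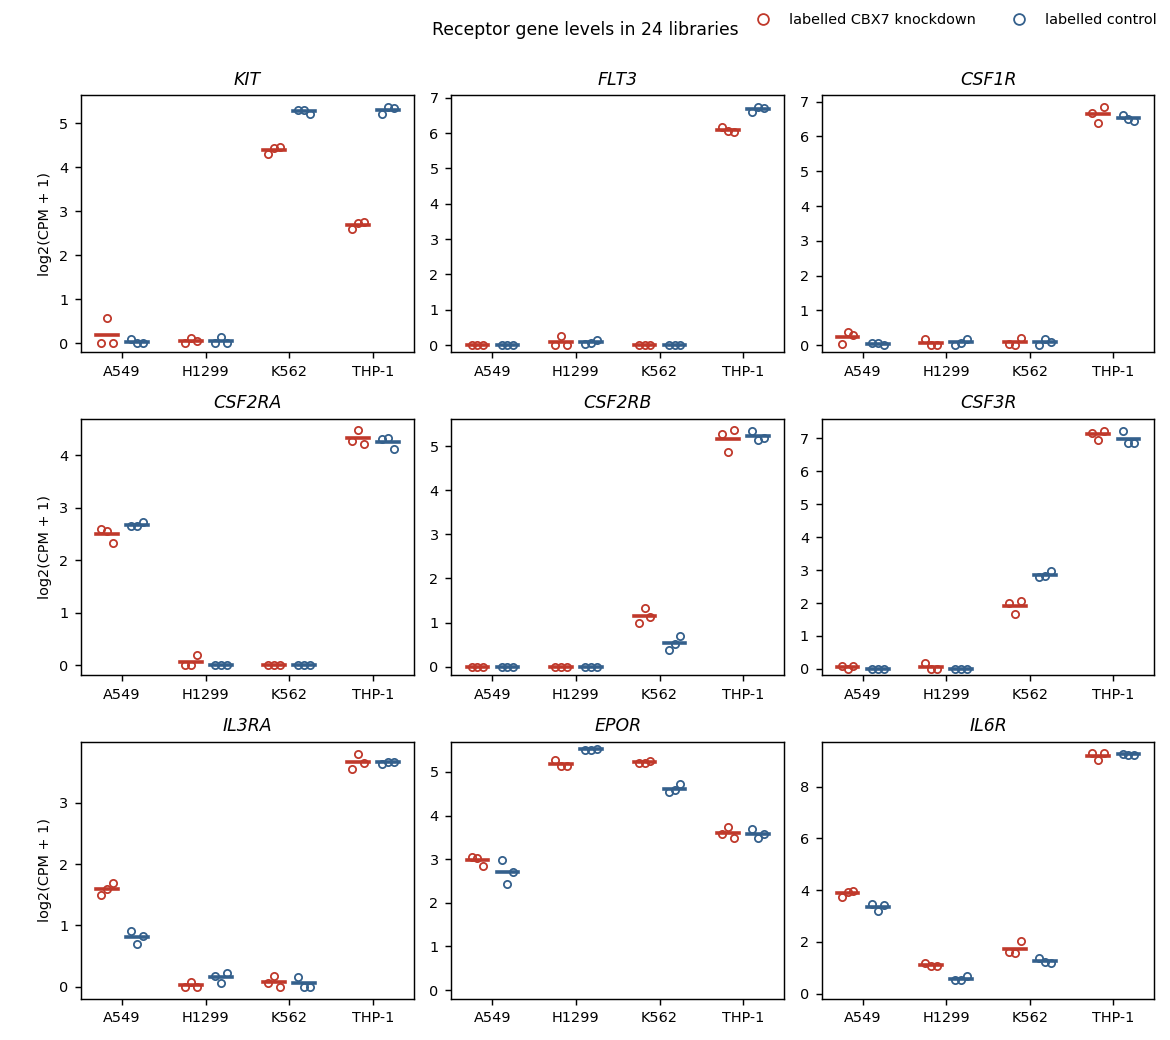
Levels of the 9 receptor genes in each of 24 libraries as log2(CPM + 1), on library sizes scaled over all 24 libraries, with libraries labelled CBX7 knockdown in red left of libraries labelled control in blue and a bar at the mean of 3. KIT in K562 and THP-1 and FLT3 in THP-1 lie lower in all 3 libraries labelled knockdown, and FLT3 is at 0 in all libraries of A549 and K562.

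Between the control libraries of 2 lines the receptors were compared in 1 fit of all 24 libraries. Of the 9 genes 4 differed between A549 and H1299 (75% of 16797 genes tested did), and 7 differed between A549 and K562 (77% of all genes). All 9 differed between A549 and THP-1 (77%) and between H1299 and THP-1 (78.1%). H1299 and K562 differed in 5 (75.7%), and K562 and THP-1 in 8 (74.1%). Receptors that did not differ among A549, H1299 and K562 lay at 0.111 CPM or less in both lines of the pair and entered the test through another line, so these counts are not read against the share of all genes. KIT was the exception between K562 and THP-1, with 37.66 ± 1.345 CPM in K562 controls and 38.6 ± 2.44 CPM in THP-1 controls (log2 fold change of K562 over THP-1 -0.05 ± 0.46 SE, edgeR adjusted p = 0.961). The adjusted p-values here come from edgeR's quasi-likelihood test with Benjamini-Hochberg adjustment over all genes tested, and a gene is called when its adjusted p is under 0.05.

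KIT was the receptor with the largest fall. In THP-1 it had 5.10, 5.61 and 5.78 CPM in the libraries labelled knockdown, against 35.8, 40.2 and 39.7 CPM in those labelled control. All 3 libraries labelled knockdown lay far below the controls, a 7.16-fold lower level (log2 fold change -2.84 ± 0.11 SE, edgeR adjusted p = 1.41e-05). In K562 it had 18.8, 20.6 and 21.0 CPM in libraries labelled knockdown and 38.4, 38.5 and 36.1 CPM in control libraries. The groups again did not overlap, and the level was 1.92-fold lower (-0.94 ± 0.06, adjusted p = 7.14e-07). With all 24 libraries in 1 fit the K562 change was -0.91 and its call was lost (adjusted p = 0.131), while the THP-1 call stayed. Every THP-1 library labelled knockdown held at least 390 estimated KIT counts and every THP-1 control at least 2779, and in K562 these minima were 1624 and 2864. In the lung lines KIT was at trace level: 44 counts in A549 knockdown replicate 2 and 0 in the other knockdown replicates, against 8 counts at most in A549 controls, and no more than 13 in any H1299 library. In a bulk library fewer cells with a transcript and less of it per cell cannot be told apart.

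FLT3 was the other receptor that fell in THP-1. It had 71.0, 66.1 and 64.5 CPM in libraries labelled knockdown, against 95.3, 105.4 and 103.1 CPM in control libraries. The groups did not overlap, and the level was 1.54-fold lower (-0.62 ± 0.09, adjusted p = 0.00512), a smaller change than that of KIT. In the fit of all 24 libraries the change was -0.62 as well but the call was lost (adjusted p = 0.223). No FLT3 count was found in any A549 or K562 library, and H1299 libraries averaged 0.067 and 0.058 CPM in the knockdown and control arms.

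CSF1R, the third receptor kinase, did not pass in THP-1, where it had 100.7, 82.8 and 113.4 CPM in libraries labelled knockdown and 97.3, 90.3 and 86.2 CPM in control libraries. The groups overlapped, and an approximate 95% interval of its log2 fold change ran from -0.17 to 0.35. This interval rests on a normal approximation, which is too narrow for so few libraries. Of the 9 receptors tested in THP-1 2 were called, both lower, where 10.2% of 14259 genes were called, 6.3% higher and 3.93% lower. That share depended on knockdown replicate 2: without it 1738 of 14379 genes were called higher and 1586 lower, against 898 and 560 with it. The other 7, CSF1R, CSF2RA, CSF2RB, CSF3R, IL3RA, EPOR and IL6R, had log2 fold changes between -0.07 and 0.11 with adjusted p between 0.684 and 0.964. None of these 7 was called when any 1 library was left out, and CSF1R came nearest (lowest edgeR adjusted p = 0.0714). The 12 monocyte genes summed to 1876 to 2069 CPM in THP-1 libraries labelled knockdown and 1872 to 2024 CPM in controls, and 3 of them rose and 1 fell.

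The GM-CSF and interleukin-3 receptor chains were highest in THP-1. CSF2RB, the shared chain, had 35.3 ± 6.36 and 36.3 ± 2.89 CPM in THP-1 libraries labelled knockdown and control, and not a single count in A549 and H1299. In K562 it was scarce but higher, with 0.973, 1.497 and 1.18 CPM in libraries labelled knockdown, against 0.289, 0.431 and 0.630 CPM in controls. The groups did not overlap (1.41 ± 0.38, adjusted p = 0.00881), on 84 to 154 counts against 34 to 50. Its partner chains were absent or at trace level there, CSF2RA with 0 counts in all 6 K562 libraries and IL3RA with at most 13.

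CSF2RA had 19.1 ± 1.92 and 18.2 ± 1.47 CPM in THP-1 libraries labelled knockdown and control. A549 also carried it, at 5.02, 4.86 and 4.03 CPM in libraries labelled knockdown and 5.27, 5.25 and 5.63 CPM in controls. These groups did not overlap, but the change did not pass (-0.21 ± 0.13, adjusted p = 0.178). IL3RA rose in A549, with 1.805, 2.03 and 2.24 CPM in libraries labelled knockdown, against 0.885, 0.621 and 0.776 CPM in controls (1.41 ± 0.25, adjusted p = 0.000373). That call was lost in the fit of all 24 libraries (1.45, adjusted p = 0.0648). In THP-1 IL3RA stood at 11.7 CPM in both arms. CSF2RA and IL3RA lie in a pseudoautosomal region and the transcript table lists each of their transcripts under a pair of copies. In THP-1 the second copy took 48.8 to 50.2% of CSF2RA and 46.9 to 49.7% of IL3RA, so their gene values are sums over near-identical copies. In A549 it took 49.9 to 51.8% of CSF2RA but 0 to 74.9% of IL3RA, so the split between the copies of IL3RA was not stable in the line where the gene was called.

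CSF3R, the G-CSF receptor of the granulocyte branch, fell in K562. It had 3.01, 2.20 and 3.15 CPM in libraries labelled knockdown and 5.89, 6.09 and 6.91 CPM in controls, a 2.32-fold lower level without overlap (-1.21 ± 0.17, adjusted p = 0.000128). In THP-1, where its level was far higher, it had 138.2 ± 13.6 CPM in libraries labelled knockdown and 125.8 ± 20.6 CPM in controls and did not pass.

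EPOR was the one receptor above 1 FPKM in every line, and its order over control libraries was H1299, K562, THP-1 and A549, at 44.9 ± 0.43, 23.6 ± 1.74, 11.01 ± 0.91 and 5.59 ± 1.26 CPM, with each neighbour different from the next (largest adjusted p = 8.30e-07). In K562 it rose, with 36.1, 35.9 and 37.4 CPM in libraries labelled knockdown, against 22.3, 22.9 and 25.6 CPM in controls (0.59 ± 0.07, adjusted p = 4.06e-05). In H1299 it fell, with 37.7, 34.1 and 34.2 CPM in libraries labelled knockdown, against 44.6, 44.7 and 45.4 CPM in controls (-0.35 ± 0.05, adjusted p = 5.56e-05). Neither pair of groups overlapped, and the opposite changes left the libraries labelled knockdown of these lines at 36.5 ± 0.78 and 35.3 ± 2.04 CPM. In A549 EPOR had 6.87 ± 0.64 and 5.59 ± 1.26 CPM in libraries labelled knockdown and control and did not pass (adjusted p = 0.126), but it passed without control replicate 1 (0.48, adjusted p = 0.0203) and in the fit of all 24 libraries (0.34, adjusted p = 0.0377).

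In K562 EPOR, CSF2RB and IL6R rose, KIT and CSF3R fell, and erythroid genes rose as well. Of 12 such markers 11 rose, where 28.9% of all genes did, and GATA1 did not pass. Their summed level was 4028 to 4292 CPM in libraries labelled knockdown and 2175 to 2313 CPM in controls, with no marker at 0. Other marker sums moved in K562 as well. Those of 6 megakaryocyte genes (13.7 to 16.6 CPM in libraries labelled knockdown and 5.86 to 7.48 CPM in controls) and 6 fibroblast genes (17.2 to 49.0 and 5.53 to 10.7 CPM) were higher. Only 1 of 3 megakaryocyte genes tested was called higher, and GP9, PF4 and PPBP were at 0 in the libraries labelled knockdown. Of 5 fibroblast genes tested 3 were called higher. Those of the 12 monocyte genes (107.0 to 110.5 and 151.0 to 155.5 CPM), 8 lymphoid genes (13.6 to 16.8 and 25.8 to 27.9 CPM) and the epithelial genes (482 to 515 and 708 to 756 CPM) were lower. Their members did not move as one. Of 9 monocyte genes tested 2 were called higher and 3 lower, and of 6 lymphoid genes 1 was called lower. Over all K562 genes 28.9% were called higher and 27.5% lower. Of 7 epithelial genes 2 were called higher and 3 lower, with a median log2 fold change of 0.65. Mast cells keep KIT, and 7 mast cell and basophil markers summed to 4.30 to 5.23 CPM in K562 libraries labelled knockdown and 2.33 to 3.34 CPM in controls. CPA3 and CMA1 were at 0 in both arms, and of 3 genes tested 2 were called higher and 1 lower. In THP-1 the same 7 genes summed to 2.16 to 2.82 CPM and 1.64 to 2.01 CPM, with CPA3 and FCER1A at 0 in both arms. Only 2 of them were tested there. Of these 1 was called higher, where 6.3% of all THP-1 genes were, yet their median log2 fold change was -1.16, on the other side from the sum. The part of these markers in the changes of the receptors was not tested.

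IL6R was called higher in the 3 lines where it was low. In A549 it had 12.4, 14.1 and 14.6 CPM in libraries labelled knockdown, against 9.89, 8.02 and 9.61 CPM in controls (0.58 ± 0.10, adjusted p = 0.000293). In H1299 it had 1.25, 1.07 and 1.09 CPM against 0.453, 0.434 and 0.607 CPM in controls (1.19 ± 0.29, adjusted p = 0.00299). The groups of both lung lines stood clear of each other. Besides the epithelial sums given above, the 6 fibroblast genes summed to 72.5 to 306.1 CPM in A549 libraries labelled knockdown and 21.3 to 21.7 CPM in controls. All 6 were called higher in A549, where 27.2% of all genes were. In H1299 they summed to 7.74 to 8.86 CPM in libraries labelled knockdown and 3.47 to 3.94 CPM in controls. The part of these markers in the changes of IL6R, IL3RA and EPOR in the lung lines was not tested. In K562 it had 2.05, 1.99 and 3.07 CPM in libraries labelled knockdown and 1.599, 1.33 and 1.26 CPM in controls (0.73 ± 0.23, adjusted p = 0.0214), and this call was lost without control replicate 2 or control replicate 3 (adjusted p = 0.0626 in each case) or knockdown replicate 3 (adjusted p = 0.103). In THP-1, with the highest level of any receptor, it had 623.0, 517.8 and 624.2 CPM in libraries labelled knockdown and 616.2, 602.3 and 601.1 CPM in controls and did not pass.

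**Figure D2:**
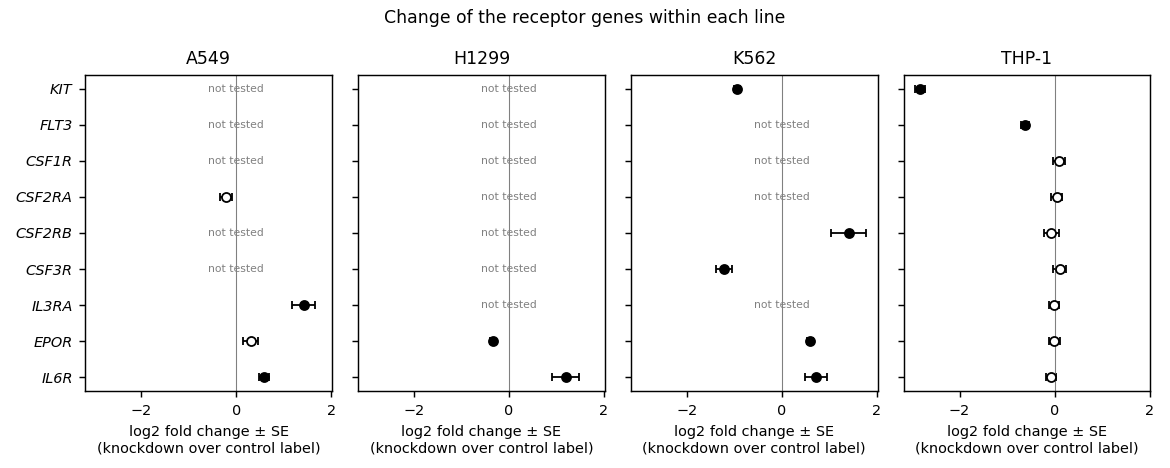
Log2 fold changes of the 9 receptor genes, libraries labelled CBX7 knockdown over libraries labelled control, fitted within each line, with bars of ± 1 SE. Filled points passed an edgeR adjusted p under 0.05, open points did not, and genes too low for the test are marked as not tested. KIT in THP-1 stands farthest to the left at -2.84, and the other receptors of THP-1 except FLT3 lie near 0.

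Counted by line, 2 of 4 receptors tested were called in A549, both higher, where 55.6% of 14980 genes were called, 27.2% higher and 28.4% lower. In H1299 2 were tested and both were called, IL6R higher and EPOR lower, where 68.9% of 14621 genes were called, 33.4% higher and 35.5% lower. In K562 5 were tested and all 5 were called, CSF2RB, EPOR and IL6R higher and KIT and CSF3R lower, where 56.5% of 13876 genes were called, 28.9% higher and 27.5% lower. The receptors not tested lay at or near 0 in their line. With most genes called in these 3 lines, a count of called receptors is not a result about receptors, and their direction and size are what the values show.

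Whether a receptor responded differently between lines was tested as an interaction in the fit of all 24 libraries. It passed for 6 of 9 receptors, where 64.9% of 16797 genes passed, with adjusted p = 0.000254 for IL6R, 0.000356 for EPOR, 0.00341 for KIT, 0.00412 for CSF3R, 0.0187 for CSF2RB and 0.0423 for IL3RA. It did not pass for CSF2RA (0.0740), nor for CSF1R (0.307) and FLT3 (0.920), both of which could be read in THP-1 alone. For other receptors too the test took in lines at or near 0, where the fitted change rests on few counts or none. CSF2RB had none in either lung line, CSF3R had at most 11 counts in a lung library labelled knockdown and none in lung controls, KIT in A549 rested on the 1 library with 44 counts, and IL3RA in H1299 had at most 20. CSF2RA had 0 counts in K562 and in H1299 only the 15 counts of knockdown replicate 3, and CSF1R had at most 28 counts in any library outside THP-1. For KIT, CSF3R, CSF2RB, IL3RA, CSF2RA and CSF1R the interaction is therefore no comparison of 4 measured responses. The IL3RA interaction was lost when any 1 library of A549 or THP-1 was left out, or H1299 control replicate 1 or 3 or H1299 knockdown replicate 1 or 3 (adjusted p = 0.0531 to 0.105), and with the replicate number as a block (adjusted p = 0.116). With DESeq2 the KIT interaction was lost (adjusted p = 0.191). CSF2RA passed with the block (adjusted p = 0.00227), with DESeq2 (3.449e-05) and without H1299 knockdown replicate 1 or 2 (0.0190 and 0.0163). All these fits kept the 15 counts of H1299 knockdown replicate 3, so they show no line-dependent response of CSF2RA.

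Between the leukaemia lines 5 receptors differed in response, where 31.9% of 16797 genes did. FLT3, CSF1R, CSF2RA and IL3RA lay at or near 0 in K562 and could not be compared, so the 5 are not read against that share. The response in K562 minus that in THP-1 was 1.53 ± 0.36 on the log2 scale for CSF2RB (adjusted p = 0.00692), 0.82 ± 0.20 for IL6R (0.00447), 0.63 ± 0.17 for EPOR (0.00647), -1.29 ± 0.39 for CSF3R (0.0205) and 1.93 ± 0.67 for KIT (0.0329). KIT thus fell less in K562 than in THP-1 from like control levels. That KIT difference did not pass without any 1 of the K562 controls, THP-1 control replicates 2 or 3, K562 knockdown replicates 2 or 3 or THP-1 knockdown replicate 1 (adjusted p = 0.0545 to 0.0687), nor with DESeq2 (0.568). On the 12 libraries of K562 and THP-1 alone, a fit chosen after seeing the data, it was 1.94 ± 0.11 (adjusted p = 1.09e-06), where 26.1% of genes passed. The CSF3R difference was lost without K562 knockdown replicate 2 (-1.14, adjusted p = 0.0540).

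Both KIT transcripts were lower in THP-1. NM_001093772, without the 12 bases shown above, had the larger share of KIT in every K562 and THP-1 library, least in K562 control replicate 3 with 52.0%. In THP-1 its level was 1.73, 2.15 and 2.64 TPM (the deposited transcript level, scaled for length and library size) in libraries labelled knockdown, against 13.9, 13.8 and 15.2 TPM in controls. NM_000222 had 0.592 TPM in THP-1 knockdown replicate 1 and 0 in replicates 2 and 3, against 1.55, 3.55 and 2.18 TPM in controls. In K562 NM_001093772 had 6.26, 8.16 and 9.498 TPM in libraries labelled knockdown and 13.5, 15.5 and 8.54 TPM in controls, groups that overlapped. Its share of KIT was 91.5 ± 14.7% and 85.6 ± 5.45% in THP-1 libraries labelled knockdown and control (exact two-sided permutation p = 0.6), and 88.3 ± 12.5% and 73.8 ± 19.5% in K562 (exact p = 0.5).

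**Figure D3:**
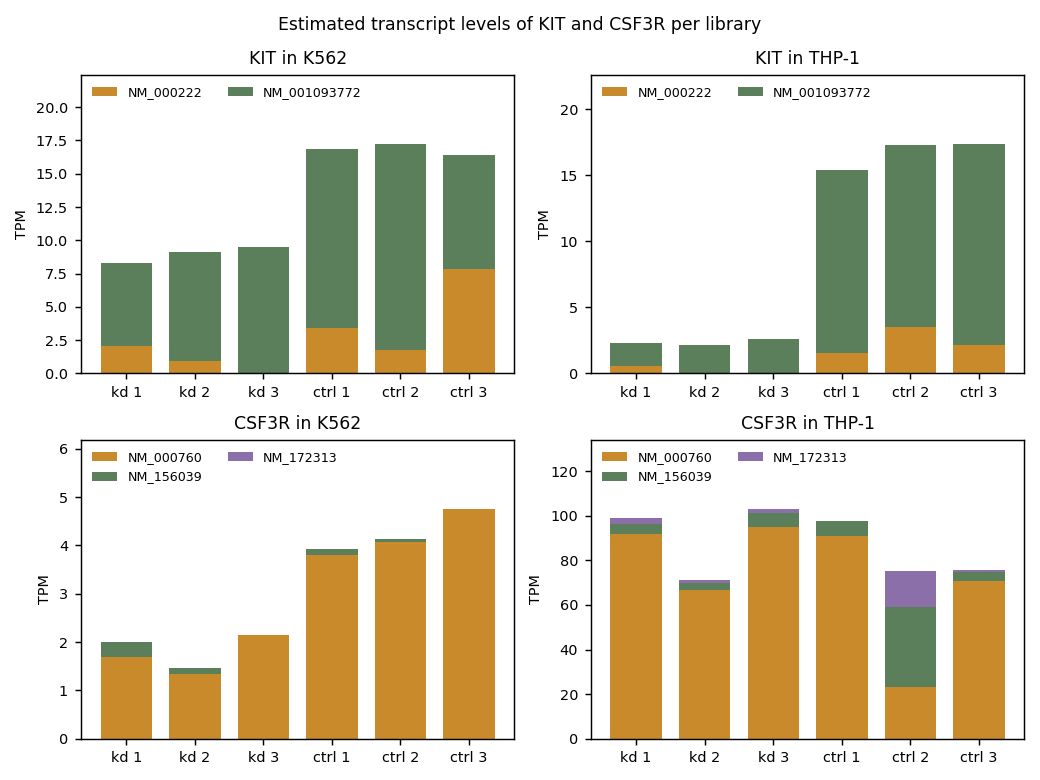
Stacked estimated levels in TPM of the transcripts of KIT (upper row) and CSF3R (lower row) in K562 and THP-1, 1 bar per library, with libraries labelled knockdown (kd) left of libraries labelled control (ctrl). KIT bars are lower in all libraries labelled knockdown, and CSF3R in THP-1 control replicate 2 has its largest part in NM_156039 in place of NM_000760.

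CSF3R in THP-1 rested on NM_000760 in 5 libraries, at 91.9 to 93.8% in those labelled knockdown and 93.0 and 93.1% in control replicates 3 and 1, but at 30.8% in control replicate 2, whose gene level of 113.7 CPM was close to the 114.2 CPM of control replicate 3. In THP-1 the membrane form of IL6R made up 86.7 to 92.1% in libraries labelled knockdown and 88.9 to 90.0% in controls, and the soluble form 7.29 to 12.6% and 8.80 to 10.2%. In K562 the estimate gave the membrane form all of IL6R in the 3 libraries labelled knockdown and 0, 45.8 and 100% in controls, on at most 262 counts per library. Of 11 shares compared over the receptors and lines none reached an adjusted p under 0.856. The exact test of 3 against 3 libraries cannot go below p = 0.1.

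Of 9 ligand genes KITLG, which encodes stem cell factor, rose in THP-1, where its receptor fell: it had 23.5 ± 3.64 CPM in libraries labelled knockdown and 14.1 ± 1.99 CPM in controls (0.71 ± 0.14, adjusted p = 0.0197). This call was lost without control replicate 1 (adjusted p = 0.0807) or control replicate 2 (0.0770). KITLG also rose in H1299, with 10.8 ± 0.74 against 6.37 ± 0.47 CPM in controls (0.75 ± 0.09, adjusted p = 1.15e-05), and did not pass the filter on low counts in K562. CSF1, the ligand of CSF1R, rose in A549 with 60.8 ± 3.45 against 37.3 ± 1.31 CPM in controls (0.71 ± 0.05, adjusted p = 2.29e-07) and fell in K562 with 30.1 ± 2.04 against 45.1 ± 1.75 CPM (-0.62 ± 0.07, adjusted p = 2.82e-05). FLT3LG rose in K562, to 3.94 ± 0.43 CPM against 2.37 ± 0.48 CPM in controls (adjusted p = 0.00905).

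The negative regulators of receptor signals leaned to lower levels in K562. Of 20 tested there 13 fell and 1 rose, with a median log2 fold change of -0.38 against 0.01 over all genes, where 27.5% of all genes fell and 28.9% rose. SOCS1, a suppressor of JAK kinases, had 20.0 ± 0.71 CPM in libraries labelled knockdown and 58.5 CPM in controls (-1.58 ± 0.06, adjusted p = 2.94e-08). CISH, which STAT5 induces and which acts back on EPOR, had 111.2 ± 6.64 and 178.6 ± 11.8 CPM (-0.72 ± 0.06, adjusted p = 8.92e-06). The 1 that rose was SH2B3, an adaptor that restrains JAK2 (0.32 ± 0.03, adjusted p = 2.35e-05). In H1299 11 of 19 rose and 4 fell, led by CBL, a ubiquitin ligase that removes activated KIT (147.3 ± 2.68 against 53.6 CPM in controls, 1.46 ± 0.04, adjusted p = 5.62e-11). The 4 were SOCS1, PTPN2, PIAS4 and DOK1, and over all genes of H1299 33.4% rose and 35.5% fell. In A549 4 rose (SOCS2, SOCS7, CISH and INPP5D) and 6 fell of 20, against 27.2% and 28.4% of all genes. In THP-1 1 of 23 tested rose, SOCS1, and 1 fell, SOCS2 (-0.89 ± 0.17, adjusted p = 0.0167), against 6.3% and 3.93% of all genes. Both calls were lost without any 1 control or knockdown replicate 1 (adjusted p = 0.0523 to 0.0791 for SOCS2), and without knockdown replicate 2 the counts were 3 higher and 4 lower.

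Of the 11 JAK and STAT genes 5 rose and 5 fell in K562, where 28.9% of all genes rose and 27.5% fell. As single libraries were left out 3 to 4 of them rose and 5 fell. JAK2, the kinase bound to EPOR and to CSF2RB, had 101.0 ± 4.85 CPM in libraries labelled knockdown and 60.3 ± 2.88 CPM in controls (0.71 ± 0.05, adjusted p = 1.26e-06), and STAT5B rose by 0.37 ± 0.04, beside JAK3 and STAT4. STAT3 also rose in K562 (1.13 ± 0.33, adjusted p = 0.0435), a call lost without any 1 of the libraries labelled knockdown or of control replicates 1 and 2 (adjusted p = 0.0916 to 0.127). TYK2 fell in all 4 lines, with log2 fold changes of -0.48 in THP-1, -0.41 in K562, -0.30 in H1299 and -0.25 in A549, the first lost without control replicates 1, 2 or 3 or knockdown replicate 1 (adjusted p = 0.0755 to 0.139). In H1299 7 of 11 rose and 1 fell, and 15 of 18 adaptors and proximal kinases rose with none lower (33.4% of all genes rose and 35.5% fell), among them SOS1 (152.1 ± 3.80 against 56.8 CPM in controls, 1.42 ± 0.04, adjusted p = 8.89e-11). As single libraries of H1299 were left out 11 to 14 adaptors and proximal kinases rose and none fell. In K562 GAB2, LYN, SYK and BTK rose and 8 fell of 20.

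Of 23 genes that receptor signals induce, 10 fell and 3 rose among 22 tested in K562, where 27.5% of all genes fell and 28.9% rose. SPRY2, a brake on the RAS pathway, was lower (-0.87 ± 0.06, adjusted p = 9.60e-07), and MYC, CCND2 and BCL6 were the 3 that rose. In THP-1 none fell and 5 rose of 21 tested, namely CCND1 (1.14 ± 0.13, adjusted p = 0.00192), ID1 (1.13), EGR1 (0.79), DUSP6 (0.68) and BCL6 (0.62), of which all but CCND1 were named after their values were seen. Over all genes of THP-1 6.3% rose and 3.93% fell, and the count of 5 was 3 without control replicate 1 or 2, while 1 gene fell without knockdown replicate 2. Among the other receptor tyrosine kinases MERTK, a receptor for the uptake of dying cells, rose in all 4 lines, most in THP-1 (1.37 ± 0.14, adjusted p = 0.00141) and K562 (1.21), then H1299 (0.62) and A549 (0.37). Of 26 other type I cytokine receptors LEPR and IL23R rose and IL11RA, OSMR, IL2RB and IL13RA1 fell among 20 tested in K562 (1 rose without knockdown replicate 3), where 28.9% of all genes rose and 27.5% fell. In THP-1 4 of 21 were called higher and 1 lower, but the higher count was 0 without any 1 of the controls, 1 without knockdown replicate 1 or 3 and 8 without knockdown replicate 2, and the lower count ranged from 0 to 3, so none of its members is named for THP-1. LEPR, the leptin receptor, rose in K562 (0.71) and H1299 (1.21), with 191.6 ± 5.84 and 114.0 ± 3.40 CPM in K562 libraries labelled knockdown and control.

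Among 20 transcription factors known to act on these receptor genes, 6 rose and 4 fell (SPI1, MITF, MEIS1 and ETV6) of 15 tested in K562, where 28.9% of all genes rose and 27.5% fell. As libraries were left out 6 to 9 rose and 2 to 4 fell, and MEIS1 (-0.41) lost its call without control replicate 1 (adjusted p = 0.0725) or knockdown replicate 2 (0.0670). LMO2, a partner of GATA1 and TAL1, had 83.0 ± 4.87 CPM in libraries labelled knockdown and 33.0 ± 2.98 CPM in controls (1.29 ± 0.07, adjusted p = 2.19e-07). GATA1 had 221.4 ± 1.32 and 223.0 ± 0.18 CPM and did not pass, and GATA2, which acts at KIT, was spread widely there at 122.2 ± 46.0 and 177.2 ± 68.0 CPM (adjusted p = 0.386). In THP-1 GATA2 was called higher (0.55 ± 0.13, adjusted p = 0.0387), a call lost without any 1 of the controls or knockdown replicate 1 or 3. MITF was also called higher there, a factor that acts at KIT in mast cells and pigment cells (7.18 ± 0.76 and 3.81 CPM, 0.88 ± 0.15, adjusted p = 0.0109, lost without control replicate 1 or 3 with adjusted p = 0.0602 in each case). SPI1, the factor of CSF1R and CSF2RA, had 259.3 ± 25.2 and 264.4 ± 18.9 CPM in THP-1 and did not pass. GATA1, GATA2, SPI1, CISH, JAK2, STAT5B, MERTK in A549 and the list members given without a value were named after their values were seen.

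**Figure D4:**
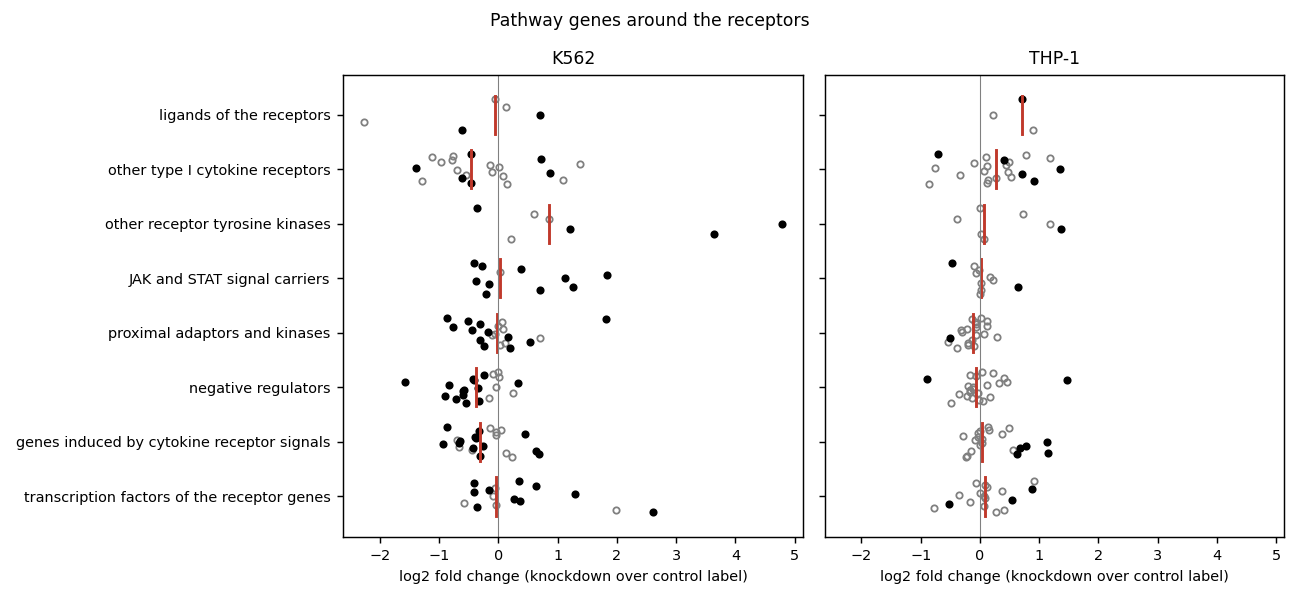
Log2 fold changes in K562 (left) and THP-1 (right), libraries labelled CBX7 knockdown over libraries labelled control, for genes of 8 lists around the receptors. Filled points passed an edgeR adjusted p under 0.05, open points did not, and the red bar is the list's median. Negative regulators in K562 lie mostly left of 0, with a median of -0.38.

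The genes whose levels over the 24 libraries were most like a receptor's were found by Pearson r of log2(CPM + 1) among 16796 genes. For KIT these were TSPAN32 (r = 0.97), PNCK (0.97) and COL23A1 (0.97). TSPAN32 had 5.53 and 8.99 CPM in THP-1 libraries labelled knockdown and control and 9.24 and 12.2 CPM in K562, so it shared the side of the KIT changes at a smaller size. COL23A1 had 23.2 and 36.1 CPM in THP-1 but 72.7 and 65.2 CPM in K562. For FLT3 they were WDR49, DPP10 and DCANP1, for CSF3R PDE1B, ARHGAP9 and ACVRL1, and for CSF2RB CD93, HCLS1 and ARL11. For EPOR they were CNRIP1, GCHFR and MDK, of which MDK had 118.3 and 44.9 CPM in K562 and 169.8 and 217.8 CPM in H1299 libraries labelled knockdown and control. For IL3RA they were KCNQ1, CRABP1 and MAN1C1, and for IL6R APBB1IP, BARX1 and ATP8B4. The libraries of a line share most of their level, so these values mainly follow the lines.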

How the data were processed

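Values came from 24 RNA-seq libraries grouped by their genotype label. The authors deposited estimated counts per gene and transcript, FPKM per gene and TPM per transcript. Gene values equal the sums over transcripts. The submitters' processing notes name HISAT2 and StringTie, with no version, and the build hg19. The kit was stranded per the labels, but the strand setting of the counting is not stated. No gene that overlaps a receptor in RefSeq was in the count table.

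Within each line the 6 libraries were fitted by edgeR 4.0.16 (R 4.3.3) on rounded estimated counts, using TMM scaling, filterByExpr and the robust quasi-likelihood test, with Benjamini-Hochberg adjustment over all genes tested. The interaction and the comparisons of control libraries between lines came from a fit of all 24 libraries with 8 group means. CPM is on TMM-scaled library sizes of that fit. Each SE was calculated back from the log2 fold change and its test statistic. Transcript shares from TPM were compared by exact permutation in lines with at least 1 CPM of the gene in both groups. In simulated counts the edgeR test within a line recovered most changes planted in a small part of the genes. These were far fewer than the genes called in any line, so the simulation is no check of lines where most genes were called. The interaction, between-line and permutation tests were not simulated. Promoters came from RefSeq (GRCh38.p14), transcript sequences from GENCODE release 29 matched by RefSeq name.

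Alternatives were DESeq2 1.42.0, other filters, all 24 libraries in 1 fit, a replicate block, limma 3.58.1 on log2(FPKM + 1) and log2(FPKM + 0.1), shares from counts, and each library left out. The receptors and gene lists were chosen with earlier results of these data known. Named were the receptors, CBX7, per list and line the called genes with the highest and lowest change and at least 5 CPM, the 3 genes most alike each called receptor, and ligands. Others are said to be named after their values were seen. Some list genes are not reported here.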

Additional observations from a re-analysis of the deposited data

Results flagged for a closer look

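For 6 receptors the change between libraries labelled knockdown and control differed between the lines by a test of the difference itself, the interaction in the edgeR fit of all 24 libraries, with adjusted p over 16797 genes. IL6R had adjusted p = 0.000254, with log2 fold changes of 0.58 in A549, 1.19 in H1299 and 0.73 in K562 against -0.07 in THP-1. The log2 fold changes here are from the fits within each line. EPOR had adjusted p = 0.0003558, rising by 0.59 in K562 and falling by 0.35 in H1299. KIT had adjusted p = 0.003412, with -0.94 in K562 and -2.84 in THP-1, but did not pass with DESeq2 (adjusted p = 0.191). CSF3R had adjusted p = 0.00412, with -1.21 in K562 and 0.11 in THP-1, and CSF2RB had adjusted p = 0.01865, with 1.41 in K562 and -0.07 in THP-1. IL3RA had adjusted p = 0.04226, with 1.41 in A549 and -0.02 in THP-1, and is the one closest to the threshold. The IL3RA interaction was lost when any 1 library of A549 or THP-1 was left out, and with the replicate block (edgeR adjusted p = 0.116). For KIT, CSF3R, CSF2RB and IL3RA the test also took in lines where the receptor lay at or near 0, with at most 44 counts in a lung library for KIT, 11 for CSF3R, 0 for CSF2RB and 20 in H1299 for IL3RA, so it is no comparison of 4 measured responses. As 64.9% of all genes passed the same test, passing it is not particular to receptors.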

How the results depend on the processing

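The number of receptors called was the same under most settings. With limma on FPKM, whose filter leaves out low genes, it was 1 in place of 2 in A549 and in H1299 and 3 in place of 5 in K562, at both pseudocounts. With all 24 libraries in 1 fit it was 4 in H1299, where CSF2RA and CSF3R were added on 15 and 11 counts in 1 library each, 1 in THP-1 (FLT3 was lost) and 4 in K562 (KIT was lost), while in A549 EPOR and IL6R took the place of IL3RA and IL6R; the cause was not tested. Leaving out each library gave 2 to 3 receptors in A549 and H1299, 4 to 5 in K562 and 2 in THP-1, and 5 to 7 with a line-dependent change. Between control lines it gave 4 to 5 for A549 and H1299 and 5 to 6 for H1299 and K562. Replicate numbers did not pair the libraries (correlations of same-numbered libraries -0.0528 to 0.0399). With the replicate block 5 receptors were called in K562 and 2 in each other line, as without it.

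Changes of sign were seen only in THP-1 among receptors that did not pass there. With limma on FPKM the log2 fold change of IL3RA was 0.0085 at a pseudocount of 1, filtered or not, and 0.0103 at 0.1, and that of EPOR was 0.0173 and 0.0211. As single libraries were left out it ranged from -0.0359 to 0.2179 for CSF1R, -0.0317 to 0.0813 for CSF2RA, -0.1829 to 0.0872 for CSF2RB, -0.0781 to 0.032 for IL3RA, -0.0735 to 0.0556 for EPOR and -0.1322 to 0.028 for IL6R. Differences in transcript share, in percentage points, moved most for CSF3R in THP-1, from -0.258 to 30.9, and IL6R in K562, from 27.1 to 77.1, as libraries were left out.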
